A study of Mus musculus with 12 samples.

Results

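*Cpsf4l*, *Arl2*, *Rhbdd3* and *Paxip1* are 4 genes at which the study's ChIP-seq placed a PRDM10 peak and whose transcripts were more abundant after deletion of *Prdm10* was induced. They were chosen by name for that rise, out of 627 PRDM10-bound genes among the 54146 genes in the files. The rise at either day is therefore what chose them, and it is given below as a description without a test. RNA came from mouse embryonic stem cells (mESCs) of the genotype *Prdm10* F/F; Rosa26-CreERT2, strain C57BL/6, cultured in serum and LIF. All groups carried the floxed alleles of *Prdm10* and the Cre recombinase, which is expressed from the Rosa26 locus, fused to a modified oestrogen receptor and activated by 4-hydroxytamoxifen (OHT). Cells received 50 nM OHT or its solvent, ethanol (EtOH), for 24 h and were harvested at Day 2 or Day 4, with 3 libraries in each of the 4 groups and 35017667 to 41409992 expected counts per library. The study's methods describe its repeats in general as biological, while the labels do not say whether the 3 libraries of a group came from separate cultures or clones. The p-values measure the spread between these libraries. In bulk RNA, fewer cells that express a gene and less RNA per cell cannot be told apart.

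PRDM10 is a zinc finger transcription factor of the PRDM family that binds DNA near gene starts and has been described mainly as an activator. The 4 proteins act in unrelated processes. CPSF4L is the paralog of CPSF4, a zinc finger subunit of the machinery that cleaves and polyadenylates mRNA 3′ ends. ARL2 is a small GTPase that works with the tubulin folding cofactors and also acts in mitochondria and in traffic of lipidated proteins. RHBDD3 belongs to the rhomboid superfamily of membrane proteins, named after intramembrane proteases. PAXIP1, also called PTIP, is a BRCT domain protein found in the KMT2C and KMT2D histone methyltransferase complexes and in the response to DNA breaks.

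The promoter of each gene is shown because a PRDM10 peak at the gene is part of how the 4 were selected. The sequences are RefSeq windows on GRCm38.p6 of 300 bases, from 250 bases before a start to 50 after it, written 5′ to 3′ on the strand of the gene. Of several windows for a gene, the one that overlaps the study's peak was taken. Capitals mark matches on either strand to TGGTNNNNNCC, which keeps 6 letters of the motif TGGTNNNGCCC, the 8 letters that differ between the wild-type and mutant probes of the study's gel shift assay. Each match to the stricter motif is also a match to the looser one.
*Cpsf4l*, chr11:113709968-113710267, minus strand: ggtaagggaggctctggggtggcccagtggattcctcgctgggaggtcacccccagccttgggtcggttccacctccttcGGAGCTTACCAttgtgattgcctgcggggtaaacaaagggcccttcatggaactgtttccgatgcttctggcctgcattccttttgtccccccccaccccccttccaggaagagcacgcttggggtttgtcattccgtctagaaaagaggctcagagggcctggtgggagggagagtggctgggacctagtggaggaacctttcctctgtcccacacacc
*Rhbdd3*, chr11:5099023-5099322, plus strand: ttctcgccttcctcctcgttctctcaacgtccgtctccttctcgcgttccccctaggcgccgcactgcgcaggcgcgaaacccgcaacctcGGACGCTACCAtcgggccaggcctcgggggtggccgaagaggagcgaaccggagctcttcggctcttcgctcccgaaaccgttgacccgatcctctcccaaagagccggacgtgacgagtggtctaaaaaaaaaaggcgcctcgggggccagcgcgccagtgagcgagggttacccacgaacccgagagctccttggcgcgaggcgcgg
*Paxip1*, chr5:27791501-27791800, minus strand: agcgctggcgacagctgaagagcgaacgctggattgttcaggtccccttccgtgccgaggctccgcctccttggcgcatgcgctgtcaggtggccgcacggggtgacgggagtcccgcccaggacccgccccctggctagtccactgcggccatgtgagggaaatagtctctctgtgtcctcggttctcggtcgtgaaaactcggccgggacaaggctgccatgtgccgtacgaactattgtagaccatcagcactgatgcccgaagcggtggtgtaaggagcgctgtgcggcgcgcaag
*Arl2*, chr19:6141088-6141387, minus strand: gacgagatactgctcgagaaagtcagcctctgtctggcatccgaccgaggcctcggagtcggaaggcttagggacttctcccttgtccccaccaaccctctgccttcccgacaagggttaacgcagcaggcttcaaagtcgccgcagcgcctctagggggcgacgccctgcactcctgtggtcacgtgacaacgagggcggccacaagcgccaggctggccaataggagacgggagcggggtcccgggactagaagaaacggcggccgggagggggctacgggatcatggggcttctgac

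None of the 4 windows held the 8-letter motif. It was present in 476 of 32851 promoter windows of that length (1.45%) and in 10.2% of the 597 windows of bound genes. The looser motif was found once in the *Cpsf4l* window, from position 81, and once in the *Rhbdd3* window, from position 92. Both matches were on the opposite strand to the gene and in a window that overlaps the peak. Among all windows 13.8% held it, and among those of bound genes 34.5%. The *Paxip1* and *Arl2* windows held no match to either. The peak assigned to *Arl2* did not overlap its promoter window but lay within the gene, near the start of the neighbour *Batf2*. The peak of *Rhbdd3* also overlapped the promoter window of *Ewsr1*, which is transcribed in the opposite direction. The 8-letter motif was present there, at the distal end of the *Ewsr1* window and outside the *Rhbdd3* window.
*Ewsr1*, first 30 bases of its window, chr11:5099317-5099346, minus strand: agcGGGCGTAACCAttccgagccaccgcgc
The windows of the 4 genes had a GC content of 59.7% (*Cpsf4l*), 65.7% (*Rhbdd3*), 64% (*Paxip1*) and 64.3% (*Arl2*), against a median of 52.7% for all windows.

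The whole-gene count of *Prdm10*, from which deletion removes only the floxed exon, was higher with the label OHT. At Day 2 the mean normalised count of *Prdm10* was 2173 ± 80.3 with the label OHT against 801 ± 29.4 with the label EtOH (SD over 3 libraries). At Day 4 the means were 2012 ± 67.5 with OHT against 869 ± 45.8 with EtOH. Loss of the floxed exon is not visible in a whole-gene count. The study reported recombination after OHT in mESCs of this genotype as verified in DNA, transcript and protein. Groups are named here by their labels, and directions are given as OHT relative to EtOH. Most of the PRDM10-bound genes that were called were lower in OHT, with log2 fold changes at Day 2 and Day 4 of -0.49 and -1.01 for *Eif3b*, -1.05 and -1.71 for *Eef1d*, -1.29 and -5.06 for *Selenow*, and -0.78 and -1.08 for *Ube2a*, 4 genes named after their values were seen. Markers matched mESCs, with all 6 pluripotency markers above 100 normalised counts and a summed level between 66684 and 80165 per library. The 6 fibroblast markers summed to 143 to 260 and the 7 markers of differentiated cells to 167 to 306, and none of these 13 had a mean above 100 over the 12 libraries. The pluripotency sum was lower in OHT than in EtOH at Day 2 (66684 to 69454 against 70391 to 72616) and higher at Day 4 (79621 to 80165 against 70879 to 73872). By group mean, only *Esrrb* went the other way at Day 2 (12917 in OHT against 11267 in EtOH). Only *Pou5f1* (23334 against 23950) and *Zfp42* (3866 against 3967) did so at Day 4. At Day 4 the fibroblast sum was lower in the libraries labelled OHT (143 to 169) than in those labelled EtOH (217 to 260), while *Lum* was at or near 0 throughout. The sum for differentiated cells was higher at Day 4 than at Day 2, in EtOH (243 to 267 against 167 to 181) and in OHT (261 to 306 against 177 to 200). In OHT the means of *T* (14.5 to 12.6) and *Gata4* (41.2 to 36.9) fell between the days, and the largest rise was that of *Sox1* (47.9 to 112). The part of these markers in the values below was not tested.

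Expression of the 4 genes is given as normalised counts, that is expected counts scaled by size factors over all 12 libraries. *Cpsf4l* (ENSMUSG00000018727.19, chromosome 11, 113698172 to 113710017, minus strand) had 971, 918 and 882 normalised counts in the 3 libraries labelled EtOH at Day 2, and 1525, 1437 and 1472 in those labelled OHT. At Day 4 the counts were 1049, 946 and 986 for EtOH and 2258, 2184 and 2248 for OHT. The groups did not overlap on either day, and the Day 4 OHT libraries lay above all others. The log2 fold change was 0.68 (SE 0.07) at Day 2 and 1.16 (SE 0.06) at Day 4, or 1.60-fold and 2.24-fold.

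*Rhbdd3* (ENSMUSG00000034175.13, chromosome 11, 5098926 to 5106093, plus strand) followed a similar course at a lower level. At Day 2 it had 539, 483 and 486 normalised counts in the libraries labelled EtOH and 776, 803 and 769 in those labelled OHT. At Day 4 it had 485, 494 and 485 in EtOH and 1006, 1102 and 1095 in OHT. Again no library labelled OHT fell within the EtOH range. The log2 fold change was 0.64 (SE 0.09) at Day 2 and 1.13 (SE 0.08) at Day 4, or 1.56-fold and 2.18-fold.

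*Arl2* (ENSMUSG00000024944.5, chromosome 19, 6134374 to 6141548, minus strand) was near its Day 4 level already at Day 2. Its normalised counts at Day 2 were 629, 666 and 645 in the libraries labelled EtOH and 1229, 1200 and 1152 in those labelled OHT. At Day 4 they were 598, 540 and 613 in EtOH and 1166, 1255 and 1192 in OHT. The OHT libraries of the 2 days overlapped one another and lay well above both EtOH groups. The log2 fold change was 0.89 (SE 0.07) at Day 2 and 1.04 (SE 0.07) at Day 4, or 1.85-fold and 2.06-fold.

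*Paxip1* (ENSMUSG00000002221.11, chromosome 5, 27740080 to 27791691, minus strand) had the most counts of the 4 genes and was highest at Day 2. The libraries labelled EtOH held 2231, 2273 and 2236 normalised counts at Day 2 and those labelled OHT 3525, 3631 and 3833. At Day 4 the values were 2007, 2125 and 2225 in EtOH and 2813, 2783 and 2933 in OHT. Here the Day 4 OHT libraries lay below all Day 2 OHT libraries, although still above both EtOH groups. The log2 fold change was 0.71 (SE 0.05) at Day 2 and 0.42 (SE 0.05) at Day 4, or 1.63-fold and 1.34-fold.

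**Figure D1:**
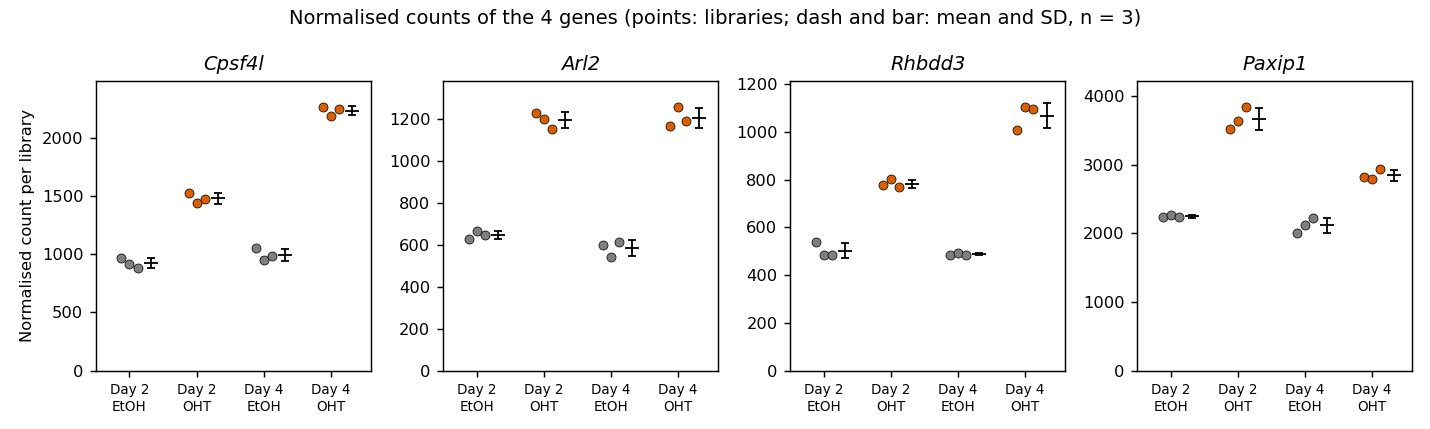
Normalised counts of *Cpsf4l*, *Arl2*, *Rhbdd3* and *Paxip1* in each of the 12 libraries by group, with the mean and SD of 3 libraries beside the points and axes that start at 0. OHT points lie above EtOH points of the same day in every panel. *Cpsf4l* and *Rhbdd3* are highest at Day 4, *Arl2* is level over the 2 OHT groups, and *Paxip1* is highest at Day 2.

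These rises were set beside those of all other genes. At Day 2, 9.17% of 11644 genes with a mean normalised count above 100 were called higher in the libraries labelled OHT and 10.6% lower (DESeq2 adjusted p below 0.05). At Day 4, 23.5% of 11555 were called higher and 21.7% lower. All 4 genes were among those called higher on both days, which the choice of the genes fixed. Of the bound genes, 46 of 426 were called higher at Day 2 and 193 lower, with a median log2 fold change of -0.15 against -0.03 over all genes tested. At Day 4, 58 of 424 were called higher and 217 lower, with a median of -0.16 against 0.01.

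When all tested genes were ordered by log2 fold change at Day 2, *Arl2* ranked 14, *Paxip1* 49, *Cpsf4l* 62 and *Rhbdd3* 81. At Day 4, *Cpsf4l* ranked 34, *Rhbdd3* 36, *Arl2* 52 and *Paxip1* 735. The choice of genes had no sharp edge at Day 2, where 6 other bound genes lay among the 4 on the log2 scale. These were *Atf7* (0.76, SE 0.13), *Polr2a* (0.72, SE 0.20), *Nphp4* (0.67, SE 0.12), *Akt2* (0.66, SE 0.06), *Wasl* (0.66, SE 0.07) and *Chmp3* (0.65, SE 0.05). Only *Prdm10* itself, at 1.44 (SE 0.07), stood above *Arl2* among the bound genes that day. The Day 4 edge was clear for 3 of them, since below *Arl2* came the bound genes *Cwc27* (0.84, SE 0.05), *Pnrc1* (0.78, SE 0.07) and *Lyrm1* (0.73, SE 0.21). *Paxip1* stood 23rd among the 424 bound genes at Day 4.

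**Figure D2:**
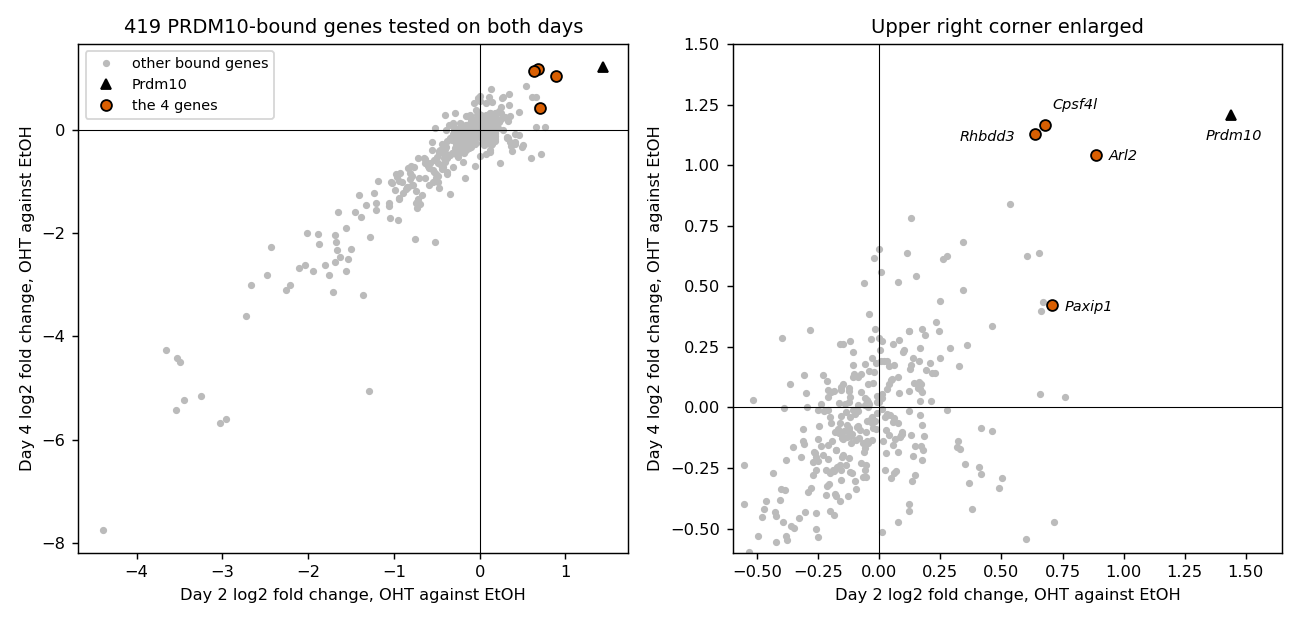
Log2 fold changes (OHT against EtOH) at Day 2 (x axis) and Day 4 (y axis) of 419 PRDM10-bound genes tested on both days, 1 point a gene, with the upper right corner enlarged in the second panel. Most points that lie far from 0 are lower on both days. *Cpsf4l*, *Rhbdd3* and *Arl2* lie next to *Prdm10* at the upper right, and *Paxip1* lies further down on the Day 4 axis.

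Rises on both days were also counted among the bound genes. Above 1.5-fold on both days, a limit chosen after the values were seen, were 6 of the 419 bound genes, namely *Arl2*, *Chmp3*, *Cpsf4l*, *Gpr108*, *Prdm10* and *Rhbdd3*. The share of all genes above that limit on both days was not counted, so the 6 are not read as a trait of bound genes. Such rises were uncommon among all genes too. *Rhbdd3*, at 0.64, ranked 81 of 11644 at Day 2, and *Gpr108*, at 0.63, ranked 279 of 11555 at Day 4. *Paxip1* passed that limit at Day 2 only. The day-by-day difference in log2 fold change, Day 4 minus Day 2, was 0.49 for *Cpsf4l*, 0.49 for *Rhbdd3*, 0.16 for *Arl2* and -0.28 for *Paxip1*. It combines the contrasts that chose the genes and was not tested.

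The change with time within a treatment was not used to choose the genes and was tested, although the same libraries enter the comparisons above. These libraries set the rises that chose the genes, so that the p-values for the 4 genes are not independent of that choice. Without OHT, 41.1% of all 11572 genes tested were called between Day 4 and Day 2, and 0 of the 4 genes by DESeq2 (0 also at an unadjusted p below 0.05, and 1 by edgeR). The log2 differences, Day 4 minus Day 2, were 0.10 for *Cpsf4l* (SE 0.07, DESeq2 adjusted p = 0.32), -0.05 for *Rhbdd3* (SE 0.09, DESeq2 adjusted p = 0.773), -0.15 for *Arl2* (SE 0.09, DESeq2 adjusted p = 0.193) and -0.09 for *Paxip1* (SE 0.05, DESeq2 adjusted p = 0.23). The 1 call of the edgeR quasi-likelihood test was *Arl2*, lower at Day 4 (adjusted p = 0.0375).

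In the libraries labelled OHT, 53.6% of 11638 genes were called between the days, and 3 of the 4 genes were among them. *Cpsf4l* rose from Day 2 to Day 4 by 0.60 on the log2 scale (SE 0.05, DESeq2 adjusted p = 1.88e-26). *Rhbdd3* rose by 0.45 (SE 0.07, DESeq2 adjusted p = 5.65e-09). *Paxip1* fell by 0.36 (SE 0.05, DESeq2 adjusted p = 1.12e-12). *Arl2* differed by 0.02 (SE 0.06, DESeq2 adjusted p = 0.895). In OHT, 2 genes thus climbed further between the days, 1 differed by less than its SE and 1 came part of the way back to its EtOH level.

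Levels of the 4 genes were compared with each other per length, as TPM. In the libraries labelled EtOH the order was the same on both days. At Day 2 *Cpsf4l* had a TPM of 17.7 ± 0.43 (SD, n = 3), *Paxip1* 14.9 ± 1.08, *Arl2* 12.05 ± 0.68 and *Rhbdd3* 9.44 ± 0.51, and no 2 neighbours in this order overlapped. Day 4 values were 21.0 ± 1.16, 15.3 ± 1.24, 11.7 ± 0.60 and 10.1 ± 0.11 (SD, n = 3), again without overlap.

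With OHT the order changed with the day. At Day 2 *Paxip1* (31.4 ± 1.66 TPM; SD, n = 3) and *Cpsf4l* (30.02 ± 1.45) overlapped and stood above *Arl2* (23.4 ± 1.39) and *Rhbdd3* (15.4 ± 1.28). At Day 4 *Cpsf4l* stood alone at 46.3 ± 1.52 TPM. Below it came *Arl2* at 24.3 ± 0.64, *Paxip1* at 22.6 ± 1.24 and *Rhbdd3* at 21.7 ± 1.13, where *Paxip1* overlapped each of its neighbours. By TPM, *Paxip1* was thus 2.11-fold higher in OHT at Day 2 and 1.48-fold at Day 4, more than by counts. At Day 2 the ratio by TPM was also above that by counts for *Cpsf4l* (1.70 against 1.60), *Arl2* (1.94 against 1.85) and *Rhbdd3* (1.64 against 1.56). Not all of the *Paxip1* difference that day is therefore particular to it.

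TPM takes account of transcript length, which the files give per gene as a mean weighted by the estimated abundance of each transcript. For *Paxip1* this length was 3527, 3197 and 3288 bases in the libraries labelled EtOH at Day 2 and 2880, 2656 and 2737 in those labelled OHT. At Day 4 it was 3518, 3304 and 3266 in EtOH and 3143, 2895 and 2982 in OHT. The groups did not overlap on either day, and the mean in OHT fell by 17.4% at Day 2 and fell by 10.6% at Day 4. Among all genes tested, the length of 42 (0.361%) fell by as much or more at Day 2 and that of 160 (1.38%) at Day 4.

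*Paxip1* has 7 transcripts in the files. By class, 1 of them, of 5850 bases, is protein-coding, and the next longest is a retained intron transcript of 3829 bases, while the other 5 have 381 to 749 bases. From the mean length alone the coding transcript can make up at most 54.1% of the *Paxip1* transcripts in the Day 2 EtOH group and at most 43.5% in the Day 2 OHT group, and 54.5% and 48.0% at Day 4. A value per transcript was not analysed here, so that the rise could not be assigned to the coding or the other transcripts.

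The other 3 genes showed no shift of that size. Their mean lengths in OHT differed from those in EtOH by -0.12% (*Cpsf4l*), 0.51% (*Arl2*) and 0.97% (*Rhbdd3*) at Day 2, and by -0.16%, -1.90% and -0.12% at Day 4, where the *Arl2* groups did not overlap. With effective lengths as offsets in the fit, the *Paxip1* log2 fold change was 1.00 (SE 0.07) at Day 2 and 0.60 (SE 0.07) at Day 4. The values of the other 3 moved by at most 0.04. RSEM's posterior SD of the count was 0 for the 4 genes in all 12 libraries, so that no reads were shared with a paralog such as *Cpsf4*.

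**Figure D3:**
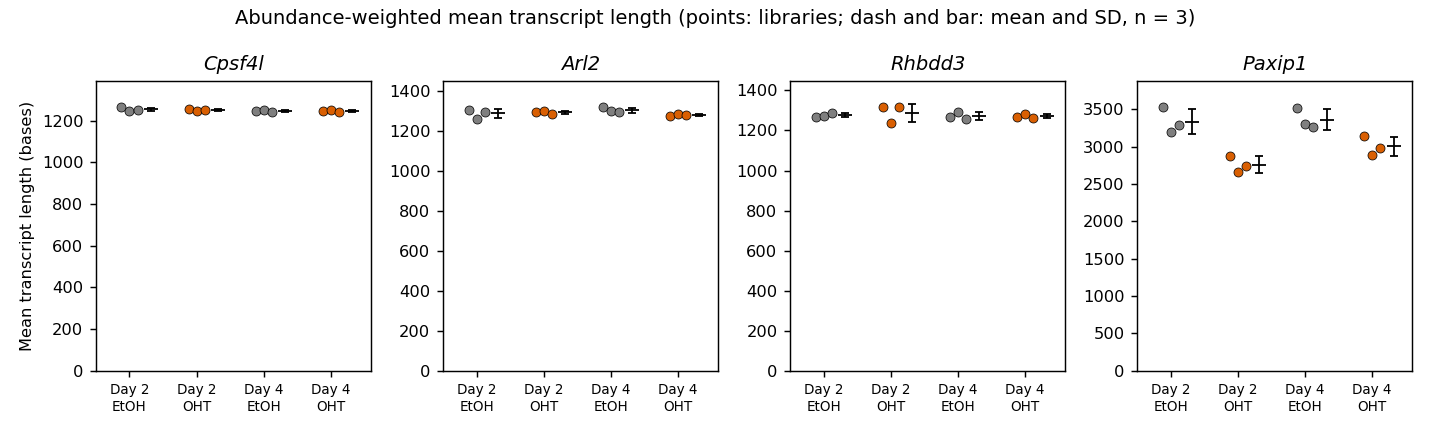
Abundance-weighted mean transcript length, in bases, of the 4 genes in each library, with the mean and SD of 3 libraries beside the points and axes that start at 0. The *Paxip1* points of OHT lie below those of EtOH on both days, and those of the other 3 genes lie within 2% of each other by group mean.

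**Figure D4:**
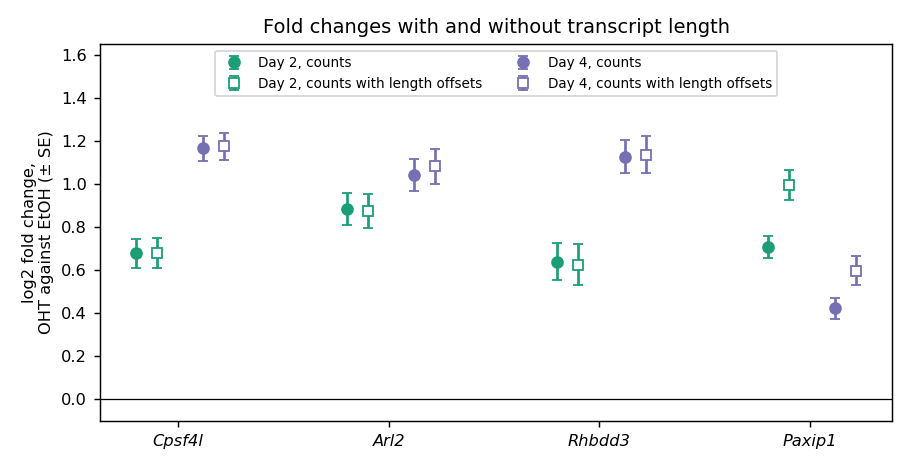
Log2 fold change, OHT against EtOH, with its SE for each gene at Day 2 and Day 4, from counts (filled circles) and from counts with effective lengths as offsets (open squares). The 2 kinds of value lie together for *Cpsf4l*, *Arl2* and *Rhbdd3*, while the *Paxip1* value moves from 0.71 to 1.00 at Day 2 and from 0.42 to 0.60 at Day 4.

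Genes at the same peak or nearby were examined next, to see whether the rises extended along the chromosome. *Rhbdd3* and *Ewsr1*, which encodes an RNA-binding protein of the FET family, share a peak and overlap by 341 bases on opposite strands. *Ewsr1* had 18940, 18629 and 20421 normalised counts in the libraries labelled EtOH at Day 2 and 18503, 19685 and 19200 in those labelled OHT, groups that overlapped. On the log2 scale the difference was -0.01 with an SE of 0.04 (DESeq2 adjusted p = 0.887). The Day 4 libraries had 18506, 17189 and 17471 in EtOH and 20203, 19804 and 20489 in OHT, and rose by 0.18 (SE 0.03, DESeq2 adjusted p = 1.69e-07). With effective lengths as offsets this value was 0.04 (adjusted p = 0.448), as its mean transcript length was 10.3% longer in OHT at Day 4. *Ewsr1* is far more abundant than *Rhbdd3*. RSEM's posterior SD was 0 for *Rhbdd3* and at most 1.37 counts for *Ewsr1*, so that no *Rhbdd3* read was shared with *Ewsr1* in the estimate. The strand setting used in counting is not given in the sources used here.

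*Arl2* overlaps *Batf2*, a transcription factor gene, by 566 bases on opposite strands and shares its peak. *Batf2* had 1 to 6 expected counts in every library and was below the minimum for a test. The small rRNA gene *n-R5s19*, the third gene assigned to that peak, was below it too. *Cpsf4l* and *Paxip1* shared their peaks with no other gene.

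Of the genes within 50 kb of the 4 genes, 12 were tested at Day 2, beside backgrounds of 9.17% higher and 10.6% lower. By DESeq2, 1 was higher and 0 lower. At an unadjusted p below 0.05, 2 were higher and 1 lower, and by edgeR 3 were higher and 1 lower. At Day 4, 5 of 11 were higher and 1 was lower, beside backgrounds of 23.5% and 21.7%. Near *Cpsf4l*, *Cog1* of the Golgi tethering complex rose by 0.17 at Day 2 (SE 0.06; adjusted p = 0.0305 by DESeq2) and by 0.24 at Day 4 (SE 0.05; adjusted p = 2.44e-05). *Cdc42ep4*, a CDC42 effector, rose by 0.34 (SE 0.04, DESeq2 adjusted p = 5.8e-15) at Day 4. The gene nearest to *Cpsf4l*, *D11Wsu47e*, 3525 bases away, was not called on either day (log2 fold changes of -0.03 and 0.09). Near *Arl2*, the Day 4 values were 0.23 for *Zfpl1* (DESeq2 adjusted p = 0.0424), 0.13 for the cohesin regulator *Cdca5* (DESeq2 adjusted p = 0.0246) and -0.21 for *Sac3d1* (DESeq2 adjusted p = 0.0399). No gene near *Paxip1* passed the minimum count.

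Partners of the 4 proteins were read as background for each gene, 60 genes in 4 lists. Counts called in a list stand beside 9.17% higher and 10.6% lower of all genes tested at Day 2, and 23.5% and 21.7% at Day 4. For PAXIP1, the list held 14 genes of the KMT2C and KMT2D complexes and of end protection at DNA breaks. At Day 2, 5 of the 14 were higher and 1 was lower, with a median log2 fold change of 0.08 against -0.03 for all genes. *Kmt2d*, which encodes a catalytic subunit, rose by 0.63 (SE 0.18, DESeq2 adjusted p = 0.00452). *Kmt2c*, which encodes the other, rose by 0.61 with an SE of 0.16 (DESeq2 adjusted p = 0.00152). The coactivator gene *Ncoa6* rose by 0.45 (SE 0.10, DESeq2 adjusted p = 0.000335), and the DNA damage kinase gene *Atm* by 0.24 (SE 0.04, DESeq2 adjusted p = 3.61e-06). With effective lengths as offsets 3 of the 14 remained called. *Ncoa6* (0.31, adjusted p = 0.0919) and *Atm* (0.16, adjusted p = 0.0608) had smaller values and were not called. *Ash2l* was at 0.10 with and without the offsets, with an adjusted p of 0.0605 with them and 0.0404 without.

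At Day 4, 3 of 14 were higher (23.5% of all genes) and 5 lower (21.7%), with a median of -0.07 against 0.01. *Ash2l* and *Atm* were called higher on both days and *Wdr5* lower on both. *Kmt2d* fell by 0.51 (SE 0.11, DESeq2 adjusted p = 2.39e-05), a call that was lost with effective lengths as offsets (-0.43, adjusted p = 0.182). The core subunit gene *Ash2l* rose by 0.46 (SE 0.03, DESeq2 adjusted p = 2.91e-56). Its partner *Dpy30* fell by 0.25 (SE 0.05, DESeq2 adjusted p = 2.89e-05) and the DNA break response gene *Trp53bp1* fell by 0.21 (SE 0.04, DESeq2 adjusted p = 2.82e-06). *Pagr1a*, the subunit that accompanies PAXIP1, had values of 0.25 (SE 1.06) and -1.68 (SE 0.80) and was not called on either day. With effective lengths as offsets it was called lower at Day 4 (-0.96, adjusted p = 4.48e-05). Its count is uncertain, with a posterior SD of up to 294 counts in a library.

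For ARL2, the list held 13 genes of tubulin folding cofactors and of ARL2 effectors and relatives. At Day 2, 0 were higher by DESeq2 (0 also at an unadjusted p below 0.05, and 1 by edgeR) and 3 were lower, with a median of -0.05. The 3 were *Rp2* (-0.28, SE 0.08, adjusted p = 0.00807), *Unc119* (-0.24, SE 0.07, adjusted p = 0.00816) and *Tbca* (-0.20, SE 0.05, adjusted p = 0.00409), and without Day2_EtOH replicate 1 none of the 13 was called. At Day 4, 3 of 13 were higher and 2 lower, beside 23.5% and 21.7% of all genes, with a median of -0.01. These 5 calls became 2 without Day4_OHT replicate 1 or 2 or without Day4_EtOH replicate 1, and 3 without replicate 3 of either group. *Tbcd*, the cofactor that forms a complex with ARL2 and β-tubulin, rose by 0.35 (SE 0.03, DESeq2 adjusted p = 7.86e-23). *Elmod2*, a GTPase-activating protein for ARL2, rose by 0.37 (SE 0.08, DESeq2 adjusted p = 1.69e-05), and *Tbcc* by 0.27 (SE 0.10, DESeq2 adjusted p = 0.0197). *Arl3*, the closest relative of *Arl2*, was not called, with values of -0.06 (SE 0.09) and -0.10 (SE 0.08).

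For CPSF4L, the list held 20 genes of mRNA 3′ end processing. At Day 2, 1 was higher and 4 were lower, with a median of -0.05, and without Day2_EtOH replicate 1 the 5 calls became 3. At Day 4, 4 of 20 were higher and 5 lower, about the shares of all genes (23.5% and 21.7%), with a median of -0.02. *Cpsf2*, itself a PRDM10-bound gene, lay far from the rest and in the opposite direction to *Cpsf4l*. At Day 2 it fell by 0.91 on the log2 scale (SE 0.05), with a DESeq2 adjusted p of 5.38e-83. At Day 4 it fell by 1.01 (SE 0.04), with a DESeq2 adjusted p of 6.75e-109. The other Day 4 calls named here were *Sympk* (0.33, SE 0.04, DESeq2 adjusted p = 1.25e-17), which encodes the scaffold symplekin, *Cpsf1* (0.32, SE 0.04, DESeq2 adjusted p = 9.88e-15) and *Clp1* (-0.32, SE 0.06, DESeq2 adjusted p = 1.14e-06). At Day 2 *Cpsf7*, a subunit of cleavage factor I, rose by 0.30 (SE 0.06, DESeq2 adjusted p = 7.35e-05), and *Cstf3* (-0.18, SE 0.05) and *Nudt21* (-0.17, SE 0.04) were lower. The *Cstf3* call was lost with effective lengths as offsets (-0.15, adjusted p = 0.0738). *Cpsf4*, the paralog of *Cpsf4l*, was not called, with values of -0.11 at Day 2 (SE 0.06; DESeq2 adjusted p = 0.189) and 0.09 at Day 4 (SE 0.05; adjusted p = 0.17).

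For RHBDD3, the list held 13 rhomboid superfamily genes, of which 10 were tested at Day 2 and 9 at Day 4. At Day 2 only *Rhbdf1*, which encodes an inactive rhomboid, was called (-0.35, SE 0.10, DESeq2 adjusted p = 0.00772), and the call was lost in turn without Day2_OHT replicate 1 and without Day2_EtOH replicates 1 and 2 (adjusted p = 0.0551, 0.067 and 0.0528). At Day 4, 2 were higher, *Rhbdd2* (0.30, SE 0.11, DESeq2 adjusted p = 0.0186) and the mitochondrial protease gene *Parl* (0.16, SE 0.05, DESeq2 adjusted p = 0.00445). The *Rhbdd2* call was lost with effective lengths as offsets (0.31, adjusted p = 0.0693). Lower were *Rhbdd1* (-0.30, SE 0.09, DESeq2 adjusted p = 0.00528) and *Ubac2* (-0.20, SE 0.06, DESeq2 adjusted p = 0.00411). The 4 calls became 1 without Day4_OHT replicate 2 and 2 without Day4_EtOH replicate 2. The medians were -0.05 and 0.07, and 2 of 9 in each direction at Day 4 is close to the 23.5% and 21.7% of all genes.

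**Figure D5:**
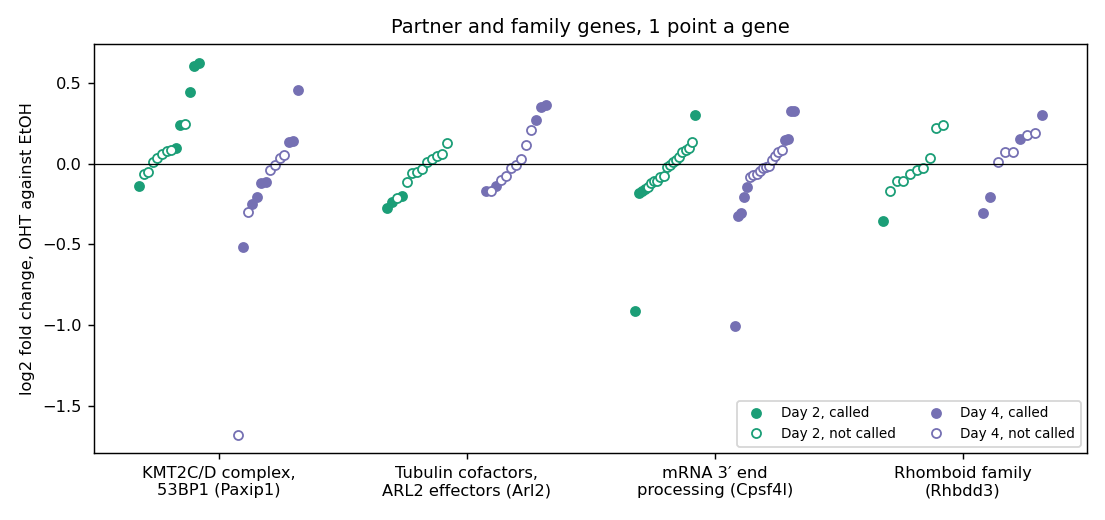
Log2 fold changes, OHT against EtOH, of the tested genes in the 4 lists of partners and relatives at Day 2 and Day 4, 1 point a gene in rising order, filled where called. Values spread to both sides of 0 in each list. *Cpsf2* is the lowest called point, at -0.91 and -1.01, and *Pagr1a* at -1.68 is not called.

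Genes with the most similar pattern over the 12 libraries were listed for each of the 4, by Pearson r of log2 normalised counts among 11616 genes. The 12 points are 4 groups of 3 libraries, so that differences between the groups enter each r, which is given as a description. *Cpsf4l* was most like *Lamp1* (r = 0.987), *Ass1* (r = 0.985) and *Cpt1a* (r = 0.983). *Rhbdd3* was most like *Man2b1* (r = 0.986), *Ass1* (r = 0.985) and *Cpsf4l* itself (r = 0.983). *Arl2* was most like *Chmp3* (r = 0.982), *Prdm10* (r = 0.976) and *Gaa* (r = 0.971), of which *Chmp3* and *Prdm10* are also bound. *Paxip1* was most like *Cltc* (r = 0.974), *Slc39a4* (r = 0.970) and *Hspg2* (r = 0.969). Among the 4 genes themselves, the lowest value was that of *Cpsf4l* and *Paxip1* (r = 0.631), whose OHT levels moved in opposite directions between the days.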

How the data were processed

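RNA-seq libraries (12, in 4 groups taken from the sample titles) were stranded and made from total RNA depleted of rRNA. For alignment the authors used STAR 2.6.0c on GRCm38.p6, and for quantification RSEM with GENCODE vM18. The deposited expected counts are RSEM estimates per gene, and the deposited TPM values are scaled to each library and by transcript length. The authors' tables of fold changes, p-values and means were used for gene symbols only.

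Expected counts were rounded and tested with DESeq2 1.42.0 (R 4.3.3; Wald test, 3 against 3 libraries). Called genes had a Benjamini-Hochberg adjusted p below 0.05 over all genes and a mean normalised count above 100. The fit was checked on simulated data. Positions came from GENCODE vM21 on GRCm38 (54079 of 54146 genes matched), and promoters from RefSeq. Bound genes are those listed by the study from its ChIP-seq. Similarity was computed on log2(normalised count + 1).

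The 4 genes, the partner lists, tests and alternatives were chosen with earlier results of these data known. Named besides the 4 genes were *Prdm10*, neighbours within 50 kb, up to 4 called genes per list and day, *Cpsf4*, *Arl3*, the 3 next bound genes per day and the 3 most similar genes. Outside this rule, further bound genes (*Akt2*, *Wasl*, *Chmp3*, *Gpr108*, *Eif3b*, *Eef1d*, *Selenow* and *Ube2a*) and the list genes *Wdr5* and *Pagr1a* were also named. Cell type markers were named as well. Alternatives were edgeR 4.0.16, TMM factors, total counts, effective lengths as offsets, 1 fit of all 12 libraries, a replicate block, no minimum mean and each library left out. Treatment by day was tested over 12 libraries for genes other than the 4. No pair of libraries in a group was a duplicate by a chi-square test of counts, which averaged 3.41 to 11.2 per gene.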

Additional observations from a re-analysis of the deposited data

Results flagged for a closer look

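The difference between the days in the effect of OHT was tested as an interaction over the 12 libraries. It was read for 38 genes from the partner lists and the neighbours of the 4 selected genes. Bound genes named above outside these sets, and the most similar genes, were not covered and may differ more between the days. Examples are *Polr2a* (0.72 at Day 2, -0.47 at Day 4) and *Selenow* (-1.29 and -5.06). The interaction passed for 18 of the 38 (DESeq2 adjusted p below 0.05), beside 32.3% of the 11616 genes tested. Most of the 38 were named because they had been called on 1 of the days, which favours such a difference, so the 2 shares are not comparable. Values are the Day 4 minus the Day 2 log2 fold change. Among partners of PAXIP1, *Kmt2d* (-1.14), *Kmt2c* (-0.91), *Ncoa6* (-0.48) and *Trp53bp1* (-0.29) went down between the days and *Ash2l* (0.37) went up. *Kmt2d*, the most negative of these, turned from 0.63 at Day 2 to -0.51 at Day 4. The interaction was fitted without length offsets, and with them the Day 4 value of *Kmt2d* was not called (-0.43, DESeq2 adjusted p = 0.182). Among partners of ARL2, *Tbcc* (0.48), *Rp2* (0.39), *Tbcd* (0.34), *Elmod2* (0.31) and *Tbca* (0.19) all went up. Among relatives of CPSF4L, *Sympk* (0.35), *Cpsf1* (0.32) and *Cpsf4* (0.20) went up and *Cpsf7* (-0.38) went down. The rhomboid family genes *Rhbdf1* (0.55) and *Parl* (0.19) and the neighbours *Cdc42ep4* (0.22) and *Ewsr1* (0.20) also went up.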

How the results depend on the processing

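Of 192 alternative values for the 16 log2 differences of the 4 genes, 185 kept direction, call and, for the rises that chose the genes, stayed within 1 SD of the libraries. With effective lengths as offsets *Paxip1* moved to 1.00 at Day 2 and 0.60 at Day 4. The edgeR test called *Arl2* in EtOH between the days (-0.15). Values near 0 changed sign without a call. With total counts these were *Arl2* in OHT between the days (-0.013) and *Ewsr1* at Day 2 (0.023). With libraries left out, *Arl2* in OHT ran from -0.013 to 0.040, *Rhbdd3* in EtOH from -0.075 to 0.0069 and *Ewsr1* at Day 2 from -0.040 to 0.029. The Day 4 call of *Ewsr1* was lost with length offsets (0.04).

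Counts of called genes in the lists moved more. For partners of PAXIP1 at Day 2, length offsets gave 3. For partners of ARL2, edgeR gave 5 at Day 2, length offsets 3 at Day 4, and left-out libraries 0 to 3 at Day 2 and 2 to 4 at Day 4. For relatives of CPSF4L at Day 2, edgeR gave 9 and left-out libraries 3 to 6. For the rhomboid family, edgeR gave 2 at Day 2, and left-out libraries 0 to 1 at Day 2 and 1 to 5 at Day 4. The cause was not tested.

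Replicate numbers are shared between groups, but deviations from group means of same-numbered libraries correlated from -0.38 to 0.28, so the numbers were not taken to pair libraries. With a replicate block, calls of the 4 genes were as before, and list counts fell to 0 and 2 for ARL2 and to 0 and 2 for the rhomboid family at Day 2 and Day 4. Each group had 3 libraries, which limits all values.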
